A study of Homo sapiens with 12 samples.

Results

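The comparison set PLC/PRF/5 against Huh7, both grown with lenvatinib, and asked how these liver cancer lines differed in gene expression while on the drug, and which of the differences between them appeared, shrank, widened, vanished or turned over relative to the same lines grown with DMSO, the solvent of the drug. It rests on the 6 lenvatinib libraries, 3 of PLC/PRF/5 and 3 of Huh7, of 12 libraries in the series; the 6 DMSO libraries, again 3 per line, served as the reference. Both are established human hepatocellular carcinoma lines, and messenger RNA was read. PLC/PRF/5 carries integrated hepatitis B virus DNA, whereas Huh7 is a line without the virus. All 4 groups were labelled wild type. The labels give neither a dose nor a length of exposure. Each line is 1 line, and a line difference is therefore a difference between these cultures and not between classes of tumours. Nothing in the labels says that replicates came from separate cultures, and the p-values measure only the spread between these libraries, which may be technical.

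Lenvatinib, a drug for advanced hepatocellular carcinoma, inhibits several receptor tyrosine kinases: those of VEGF and FGF, and also PDGFRA, KIT and RET. In liver cancer cells the FGF19 hormone acts through the receptor FGFR4 and its co-receptor beta-Klotho (KLB), and the receptor passes the signal through RAS, RAF and MEK to the kinase ERK. ERK switches on immediate targets, among them its own brakes (the Sprouty, SPRED and DUSP proteins) and the ETS factors ETV1, ETV4 and ETV5, and drives entry into the cell cycle through cyclin D1 and the E2F factors. Cells that keep ERK active through other receptors, such as EGFR, are known to respond less to the drug. The study itself concerns syntaxin 6 (STX6), autophagy and resistance to lenvatinib.

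Each library held between 70236175 and 75820318 counts. Mitochondrial transcripts made up 11.1 ± 0.145% in PLC/PRF/5 and 6.58 ± 0.281% in Huh7 under lenvatinib (SD, n = 3), and 10.5 ± 0.181% and 5.64 ± 0.0600% under DMSO; their part in the results was not tested, and leaving these transcripts out of the totals gave 10395 lenvatinib calls in place of 10399. In a principal component analysis the lines lay apart on component 1 (81.1% of the variance), and within each line lenvatinib and DMSO lay apart on component 2 (3.93%). All 11 markers listed for a liver cancer line were measured, 2 higher and 9 lower in PLC/PRF/5 under lenvatinib, and albumin was far lower in PLC/PRF/5, as given with the secreted proteins. Of the markers of other cell types, 3 of 12 immune, 1 of 9 endothelial and 4 of 9 stromal genes passed the filter on low values, and the defining immune gene PTPRC and the endothelial genes CDH5 and VWF did not. The summed level of the immune list was 8.21 to 11.6 CPM in Huh7 and 81.4 to 90.9 CPM in PLC/PRF/5 under lenvatinib, from CD68, LYZ and CD14 alone, and its part in the results was not tested.

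Expression is given as CPM, counts per 1e6 reads scaled by TMM factors. A line difference is the log2 fold change of PLC/PRF/5 over Huh7 with its standard error, so that positive values mean higher in PLC/PRF/5, and a gene was called at an adjusted p under 0.05 in edgeR's quasi-likelihood test. Of 15587 genes tested, 10399 (66.7%) differed between the lines under lenvatinib, 5307 (34.0%) of them higher in PLC/PRF/5 and 5092 (32.7%) lower. At least 2-fold differences were called for 5075 genes (32.6%) and at least 8-fold differences for 1528 (9.80%). Under DMSO the corresponding count was 10436 (67.0%), with 5234 (33.6%) higher and 5202 (33.4%) lower. The median line difference over all genes tested was 0.01 under lenvatinib and 0.00 under DMSO, and the median size of a line difference was 0.69 and 0.70. With this share of genes called, a call between the lines is the common case, and the counts of gene groups below are to be read against it.

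Most line differences were shared by both conditions. Of the lenvatinib calls, 82.7% were also called in the same direction under DMSO, which is 82.4% of the DMSO calls. The line difference itself was another under lenvatinib than under DMSO for 2247 genes (14.4%), more positive for 1170 (7.51%) and more negative for 1077 (6.91%), and it moved at least 2-fold for 665 (4.27%). Counts of differences that moved up or down in the gene groups below are to be read against 7.51% and 6.91%. All but 1 of the 2247 genes, which was called in neither condition alone, fell into 5 classes. A line difference appeared for 393 genes (2.52%), which were called under lenvatinib and not under DMSO, and vanished for 391 (2.51%), which were called under DMSO and not under lenvatinib. It shrank for 710 (4.56%), widened for 561 (3.60%) and turned over, with calls of opposite sign in the 2 conditions, for 191 (1.23%). A further 1211 genes called only under lenvatinib and 1250 called only under DMSO did not pass the test of the difference, and are not counted as having appeared or vanished. The effect of the drug within a line was not tested here, and its values are given side by side.

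**Figure D1:**
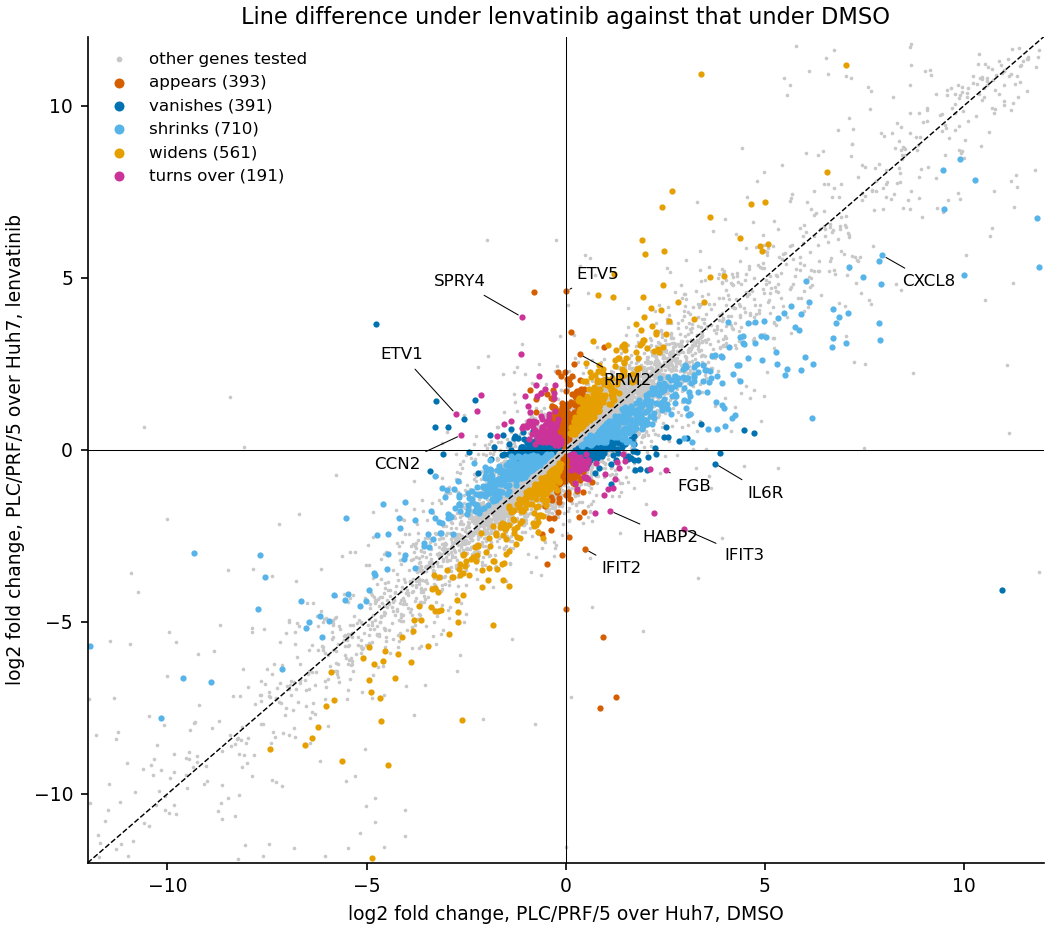
Line difference of each gene tested under DMSO (x axis) and under lenvatinib (y axis), both as log2 fold change of PLC/PRF/5 over Huh7; the dashed line marks equal values, colours mark the 5 classes with their gene counts, and 175 genes beyond 12 on either axis, whose fitted values rest on few or no counts in 1 line, are not drawn. Most genes follow the dashed line, with SPRY4, ETV5 and RRM2 far above it and IFIT3, IL6R and FGB far below.

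Among the widest differences under lenvatinib were those of genes read in 1 line and at 0 in all 3 libraries of the other, for which a lower bound against a floor of 3 counts over the group is given in place of a fitted value. CRH, corticotropin-releasing hormone, stood at 201, 239 and 213 CPM in PLC/PRF/5 and at 0 in Huh7, at least 15900-fold higher in PLC/PRF/5. NLGN4X, a neuronal adhesion protein, stood at 107, 109 and 107 CPM, at least 7860-fold higher. SAGE1, an antigen of the testis and of tumours on the X chromosome, stood at 67.1, 69.7 and 68.0 CPM, at least 4989-fold higher. In the other direction, the membrane protein TMEM176B stood at 36.6, 42.2 and 32.2 CPM in Huh7 and at 0 in PLC/PRF/5, at least 2791-fold lower in PLC/PRF/5; its exons overlap those of TMEM176A, and without a stated strand setting the reads of both cannot be told apart. SLC22A9, an organic anion carrier of the liver, was at least 2730-fold lower in PLC/PRF/5, at 37.5, 35.4 and 35.6 CPM in Huh7. For these genes the lines did not overlap, as for 11237 of all genes tested (72.1%). Each was also called in the same direction under DMSO, and for none was the difference between the conditions called. For SAGE1, TMEM176B and SLC22A9, at 0 in 1 line in both conditions, that test could not decide. For CRH and NLGN4X it rests on few counts in Huh7 with DMSO. With DMSO CRH stood at 477, 444 and 460 CPM in PLC/PRF/5, and SLC22A9 at 18.6, 18.4 and 15.85 CPM in Huh7.

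Genes of ERK output were higher in PLC/PRF/5 under lenvatinib, by more than under DMSO. Of 17 members measured, 15 were called higher in PLC/PRF/5 under lenvatinib and 0 lower, whereas 9 were higher and 3 lower under DMSO; the line difference moved up for 11 and down for 2. The median line difference of the list was 1.97 under lenvatinib and 0.35 under DMSO, against 0.01 and 0.00 over all genes tested. The remaining member of the list, SPRED3, did not pass the filter on low values. As in any bulk measurement, fewer cells that express a gene and less RNA per cell cannot be told apart.

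Among the ETS factors, ETV5 stood at 36.3, 43.4 and 37.8 CPM in the PLC/PRF/5 libraries with lenvatinib and at 1.92, 1.37 and 1.52 CPM in the Huh7 libraries with lenvatinib. With DMSO the values were 43.0, 49.8 and 46.6 CPM in PLC/PRF/5 and 44.7, 47.5 and 46.0 CPM in Huh7. The lines overlapped under DMSO and lay far apart under lenvatinib, where the Huh7 libraries were the low ones. The line difference was 4.61 ± 0.14 under lenvatinib (adjusted p = 5.0e-10), 0.01 ± 0.11 under DMSO (adjusted p = 0.928), and the difference of the 2 was 4.597 ± 0.17 (adjusted p = 1.3e-07). ETV4 was at 64.5, 71.3 and 67.7 CPM in PLC/PRF/5 and 2.56, 2.25 and 4.63 CPM in Huh7 with lenvatinib, a line difference of 4.43 ± 0.23 that was 1.18 ± 0.20 under DMSO. Both lines were higher with DMSO, at 123, 106 and 117 CPM in PLC/PRF/5 and 48.8, 50.8 and 53.3 CPM in Huh7. ETV1 turned over: with DMSO it was the Huh7 libraries that were high, at 72.3, 68.4 and 77.8 CPM against 8.42, 12.8 and 11.1 CPM in PLC/PRF/5, and with lenvatinib PLC/PRF/5 was higher, at 7.10, 6.94 and 9.60 CPM against 3.68, 3.48 and 4.34 CPM. Its line difference went from -2.76 ± 0.18 to 1.04 ± 0.17 (adjusted p of the difference 7.05e-06). Exons of ETV5 overlap those of DGKG and exons of ETV4 those of DHX8 in GENCODE 29.

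The feedback brakes of the pathway followed. SPRY4, a Sprouty protein that restrains RAS signalling (chr5:142310427-142326455, minus strand, GRCh38), stood at 21.4, 23.8 and 25.8 CPM in PLC/PRF/5 and at 2.12, 1.12 and 1.66 CPM in Huh7 under lenvatinib. Under DMSO the order was the opposite, with 30.5, 28.3 and 33.4 CPM in PLC/PRF/5 and 56.9, 68.7 and 72.1 CPM in Huh7. In neither condition did the lines overlap, and the line difference turned over from -1.10 ± 0.18 to 3.86 ± 0.21, a difference of 4.96 ± 0.27 (adjusted p = 2.7e-06). DUSP6, the phosphatase that removes the activating phosphates from ERK, was at 14.3, 21.2 and 16.3 CPM in PLC/PRF/5 and 0.834, 0.579 and 0.876 CPM in Huh7 with lenvatinib, and its line difference widened from 0.81 ± 0.17 to 4.50 ± 0.20. With DMSO DUSP6 was at 45.15, 39.2 and 42.3 CPM in PLC/PRF/5 and 23.1, 26.2 and 23.0 CPM in Huh7, so that both lines were lower with lenvatinib. SPRED1, which recruits neurofibromin to RAS, was at 36.5, 45.1 and 45.0 CPM in PLC/PRF/5 against 4.27, 2.69 and 4.94 CPM in Huh7 with lenvatinib, and its line difference of 3.41 ± 0.21 appeared from 0.12 ± 0.19 under DMSO. SPRY2 appeared as well, at 1.73 ± 0.20 from -0.32 ± 0.19, and the phosphatase DUSP5 widened from 0.80 ± 0.14 to 1.97 ± 0.15. DUSP4 was called higher in PLC/PRF/5 in both conditions, at 0.72 ± 0.10 and 0.35 ± 0.10, without a call of the difference. Its mean was 42.2 CPM in PLC/PRF/5 and 25.7 CPM in Huh7 with lenvatinib, against 90.6 and 71.0 CPM with DMSO.

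Cyclin D1 (CCND1), which links ERK to the cell cycle, stood at 149, 164 and 152 CPM in PLC/PRF/5 and 54.7, 52.9 and 56.4 CPM in Huh7 with lenvatinib. With DMSO the values were 174, 188 and 177 CPM in PLC/PRF/5 and 223, 228 and 206 CPM in Huh7. Its line difference turned over from -0.28 ± 0.06 to 1.503 ± 0.06 (adjusted p of the difference 5.1e-07); its exons overlap those of LTO1. Not every member followed. PHLDA1, an early-response gene, shrank from 2.66 ± 0.13 to 1.56 ± 0.13, with Huh7 between 20.2 and 26.7 CPM in both conditions. MYC and EGR1 were called higher in PLC/PRF/5 under DMSO and not under lenvatinib. Only 1 member of the list was in the class that vanished, so the difference between the conditions was called for only 1 of them.

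**Figure D2:**
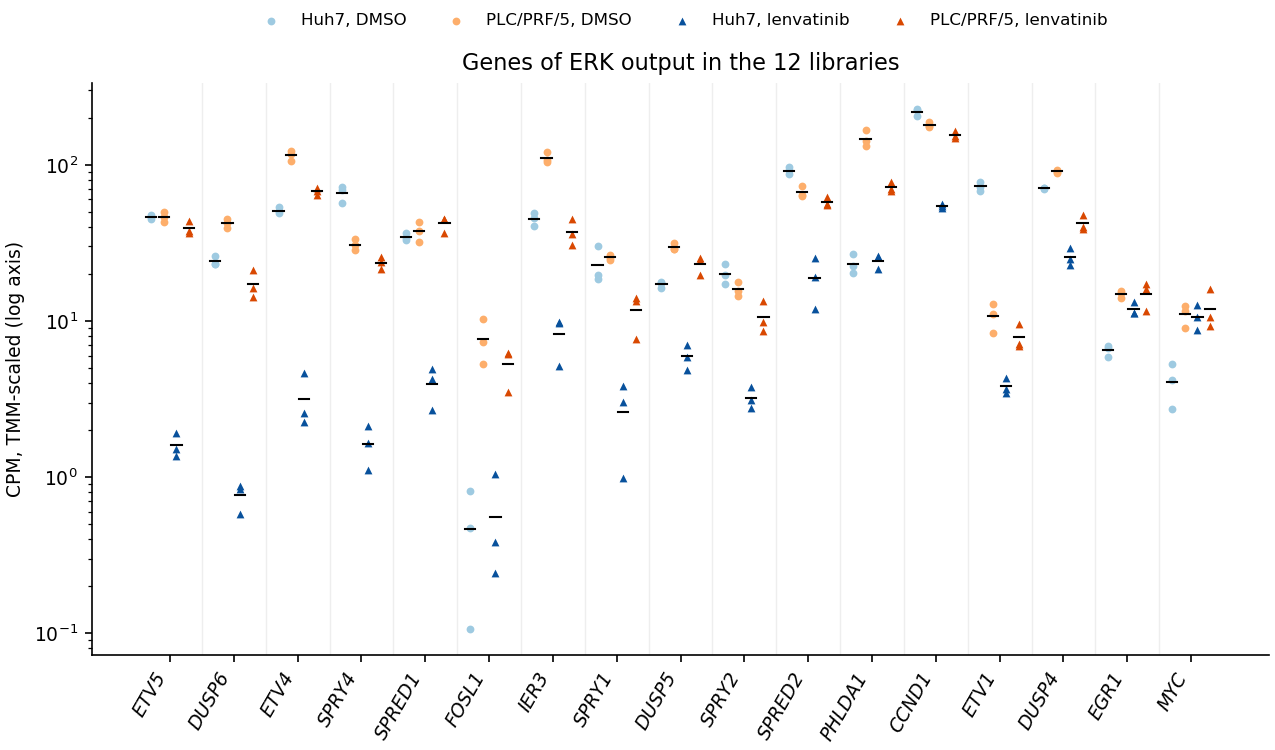
CPM (log axis) of the 17 measured genes of ERK output in the 12 libraries, as points with the group mean as a black bar, ordered by the line difference under lenvatinib. For ETV5, SPRY4, DUSP6, ETV4 and SPRED1 the Huh7 libraries with lenvatinib (dark blue) sit below the other 3 groups, between 0.579 and 4.94 CPM.

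In the cell cycle list the line difference moved one way. Under lenvatinib 17 of 30 members were called higher in PLC/PRF/5 and 8 lower; under DMSO 3 were higher and 20 lower. The line difference moved up for 26 and down for 0, against 7.51% and 6.91% of all genes tested. The list's median was 0.27 under lenvatinib and -0.62 under DMSO. The members called higher under lenvatinib were the helicase subunits MCM2 to MCM7, the licensing factors CDC6 and CDT1, the nucleotide enzymes RRM1, RRM2 and TYMS, the cyclins CCNE1 and CCNE2, E2F1, AURKA, BUB1 and TOP2A. The 8 called lower were CDC20, PLK1, CCNB1, CCNB2, CCNA2, CENPF, AURKB and KIF11. MKI67, PCNA, CDK1, FOXM1 and BIRC5 were not called under lenvatinib.

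E2F1, the transcription factor that starts S phase, stood at 69.1, 58.1 and 62.9 CPM in PLC/PRF/5 and at 19.1, 12.4 and 19.4 CPM in Huh7 with lenvatinib, against 55, 47.5 and 54.3 CPM and 43.8, 51.3 and 49.9 CPM with DMSO. The lines overlapped under DMSO and not under lenvatinib, and a line difference of 1.90 ± 0.16 appeared (0.11 ± 0.15 under DMSO, adjusted p of the difference 3.9e-04). RRM2, the small subunit of ribonucleotide reductase, stood at 139, 166 and 91.2 CPM against 19.3, 11.1 and 27.6 CPM, a line difference of 2.77 ± 0.35 that appeared from 0.35 ± 0.33; the Huh7 replicates lay over 2-fold apart. Thymidylate synthase (TYMS), which makes thymidine monophosphate, widened from 0.73 ± 0.14 to 2.16 ± 0.14; its exons overlap those of ENOSF1 and TYMSOS. CCNE2, cyclin E2, appeared at 2.07 ± 0.30 from 0.08 ± 0.29, and CDC6, which loads the replicative helicase, at 2.01 ± 0.25 from 0.36 ± 0.24. The Huh7 replicates of CDC6 with lenvatinib lay over 2-fold apart, at 19.6, 11.1 and 22.7 CPM.

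Of the MCM helicase subunits, MCM6 stood at 182, 175 and 182 CPM in PLC/PRF/5 and at 82.3, 61.6 and 97.9 CPM in Huh7 with lenvatinib, whereas all 6 DMSO libraries lay between 161 and 164 CPM. Its line difference of 1.16 ± 0.13 appeared (0.02 ± 0.12 under DMSO), as did that of MCM5, at 1.24 ± 0.16. MCM3 turned over, from -0.97 ± 0.07 with DMSO to 0.67 ± 0.07 with lenvatinib. CDC20, the activator of the anaphase-promoting complex, kept its line difference: it was at 70.5, 69.3 and 63.3 CPM in PLC/PRF/5 and 160, 159 and 170 CPM in Huh7, -1.27 ± 0.06, and -1.35 ± 0.06 with DMSO, and the difference of 0.08 ± 0.08 was not called.

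The promoters of MCM6 and E2F1 are shown because they hold the binding motif of the E2F factors and their genes were level between the lines under DMSO and apart under lenvatinib. Each runs over the 200 bases before the annotated start (RefSeq, GRCh38.p14), 5′ to 3′ on the gene's strand, with matches to TTTGGCGC or TTTCCCGC on either strand in capitals. MCM6 lies at chr2:135876444-135876643 and E2F1 at chr20:33686386-33686585, both on the minus strand.
MCM6: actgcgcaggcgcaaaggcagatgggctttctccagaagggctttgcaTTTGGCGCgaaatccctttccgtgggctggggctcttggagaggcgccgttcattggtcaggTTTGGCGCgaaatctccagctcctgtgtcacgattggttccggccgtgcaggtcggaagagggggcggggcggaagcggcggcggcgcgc
E2F1: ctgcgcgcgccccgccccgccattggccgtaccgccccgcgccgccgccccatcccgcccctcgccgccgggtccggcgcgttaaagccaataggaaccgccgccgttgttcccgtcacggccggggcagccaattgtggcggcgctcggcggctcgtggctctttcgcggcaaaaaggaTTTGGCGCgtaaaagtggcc
Such a match was present in 1.63% of 27305 promoter windows of this length, and in 7 of the 24 cell cycle genes that had a promoter in the table; those of RRM2 and CDC6 held 0 matches. For the genes of ERK output the ETS motif CCGGAA was searched in the same way on both strands, and was present in 3 of the 9 promoters in the table against 13.2% of all windows, with 0 matches for SPRY4 and DUSP6. A match is a description of the letters and not evidence of binding.

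**Figure D3:**
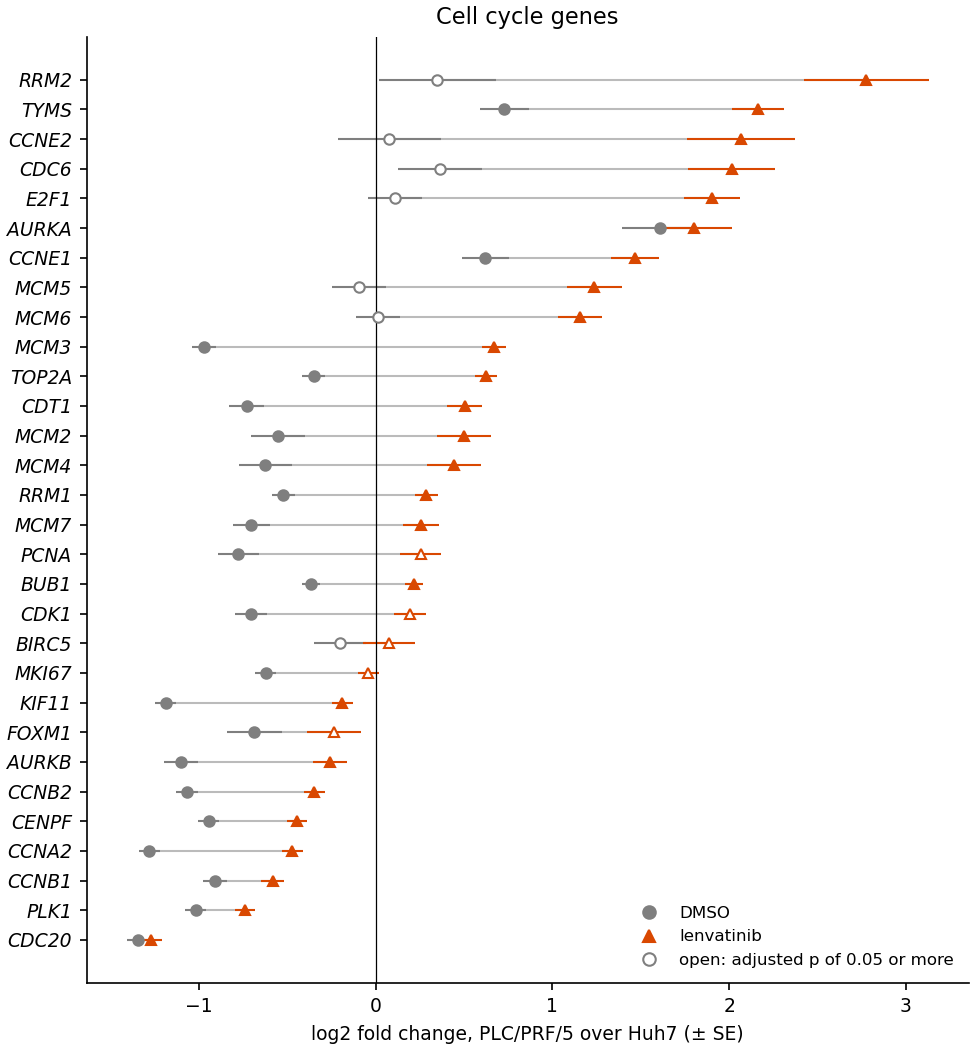
Line difference (log2 fold change of PLC/PRF/5 over Huh7, bars are standard errors) of the 30 cell cycle genes under DMSO (grey circles) and lenvatinib (orange triangles), with open symbols where the gene was not called. The lenvatinib value lies to the right of the DMSO value for each gene, from RRM2 at 2.77 to CDC20 at -1.27.

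Of the receptors that lenvatinib inhibits, 4 of 10 passed the filter on low values, and the VEGF receptors, FGFR2, KIT and RET did not. FGFR1 was higher in PLC/PRF/5, at 52.0, 59.5 and 53.2 CPM against 15.9, 12.3 and 19.2 CPM in Huh7 (1.80 ± 0.16, adjusted p = 1.6e-06). FGFR4, the FGF19 receptor of the liver, was at 124, 111 and 109 CPM against 74.7, 101 and 66.2 CPM, a smaller line difference of 0.51 ± 0.13 (adjusted p = 0.00459). FGFR3 was lower in PLC/PRF/5, at 46.4, 48.3 and 42.4 CPM against 100, 192 and 102 CPM (-1.52 ± 0.26). PDGFRA was at 0, 0 and 0.258 CPM in PLC/PRF/5 and 3.65, 2.61 and 2.27 CPM in Huh7, a fitted line difference of -5.04 ± 1.19 that rests on 1 library and was -10.69 without PLC/PRF/5 replicate 3. With DMSO PDGFRA was at 0.632, 0 and 0.111 CPM in PLC/PRF/5 and at 25.9, 26.7 and 28.15 CPM in Huh7. Its test of the difference between the conditions rests on few counts in PLC/PRF/5. For none of the 4 was the difference between the conditions called (FGFR1 0.54 ± 0.22, FGFR3 0.39 ± 0.35, FGFR4 0.33 ± 0.18, PDGFRA 1.70 ± 1.63). Without Huh7 lenvatinib replicate 3, that of FGFR1 was called (0.71, adjusted p = 0.0360), and without Huh7 lenvatinib replicate 2, that of FGFR4 (0.52, adjusted p = 0.0114) and its line difference under DMSO (0.18, adjusted p = 0.0498). Exons of FGFR1 overlap those of LETM2.

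The ligand FGF19 was read in Huh7 and nearly absent from PLC/PRF/5, at 20.7, 23.8 and 21.6 CPM against 0, 0.245 and 0 CPM (-8.02 ± 1.16, adjusted p = 1.1e-04; -13.64 without PLC/PRF/5 replicate 2, the library that holds its reads). With DMSO FGF19 was at 8.16, 6.35 and 8.64 CPM in Huh7 and at 0, 0.04355 and 0.320 CPM in PLC/PRF/5. The difference of -2.05 ± 1.495, on few counts in PLC/PRF/5, was not called. The co-receptor KLB turned over. It stood at 81.7, 78.8 and 82.0 CPM in PLC/PRF/5 and 175, 205 and 151 CPM in Huh7 with lenvatinib, and at 132, 134 and 126 CPM against 105, 111 and 106 CPM with DMSO. In both conditions the lines were apart, PLC/PRF/5 being the higher one with DMSO (0.28 ± 0.09) and the lower one with lenvatinib (-1.13 ± 0.09, adjusted p of the difference 5.5e-05).

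Receptors and ligands known as bypass routes differed in both directions, 7 of 13 higher and 3 lower in PLC/PRF/5 under lenvatinib, and 8 and 4 under DMSO. The shares of all genes tested under lenvatinib were 34.0% higher and 32.7% lower. EGFR was lower in PLC/PRF/5, at 205, 227 and 231 CPM against 501, 540 and 499 CPM in Huh7 (-1.22 ± 0.05), and was so under DMSO (-0.94 ± 0.05). Its ligand epiregulin (EREG) was higher in PLC/PRF/5 by 4.82 ± 0.24, at 230, 264 and 252 CPM against 9.23, 5.66 and 11.6 CPM, and by 5.03 ± 0.24 under DMSO. AXL, a receptor of GAS6, was at 44.7, 47.4 and 46.0 CPM in PLC/PRF/5 and at 0, 0.310 and 0.529 CPM in Huh7 (7.36 ± 0.63), and IGF1R was higher in PLC/PRF/5 by 0.80 ± 0.05. EPHA2, an ephrin receptor, turned over like SPRY4, ETV1 and CCND1, with 45.9, 51.4 and 50.7 CPM in PLC/PRF/5 against 10.3, 9.16 and 14.1 CPM in Huh7 with lenvatinib (2.14 ± 0.14) and -0.66 ± 0.13 with DMSO. The DMSO libraries were higher in both lines, at 84.3, 81.0 and 74.7 CPM in PLC/PRF/5 and 118, 134 and 128 CPM in Huh7.

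Genes controlled by NF-kB, the transcription factor of inflammatory signalling, were higher in PLC/PRF/5 under both conditions, and part of the line difference shrank. Under lenvatinib 20 of 21 measured members were called higher and 0 lower, and under DMSO 21 and 0; the difference moved down for 9 and up for 0. The list's median line difference was 3.38 under lenvatinib and 4.97 under DMSO. CXCL8, the neutrophil chemokine interleukin-8, stood at 86.7, 119 and 102 CPM in PLC/PRF/5 and 2.19, 1.37 and 2.59 CPM in Huh7 with lenvatinib, and at 594, 605 and 601 CPM against 2.82, 2.40 and 2.06 CPM with DMSO. The lines were apart in both conditions, and the PLC/PRF/5 libraries with lenvatinib lay below those with DMSO. Its line difference shrank from 7.95 ± 0.25 to 5.65 ± 0.23 (adjusted p = 4.5e-04). CXCL2, another neutrophil chemokine, shrank from 6.68 ± 0.44 to 2.99 ± 0.37 and stood at 5.89, 16 and 10.8 CPM in PLC/PRF/5 with lenvatinib, replicates over 2-fold apart. CCL20, a chemokine for T helper and dendritic cells, shrank from 6.71 ± 0.47 to 3.26 ± 0.40.

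Among the regulators of the pathway, NFKB2, the precursor of the p52 subunit, stood at 362, 415 and 390 CPM in PLC/PRF/5 and 40.9, 31.5 and 49.1 CPM in Huh7, and its line difference shrank from 4.37 ± 0.14 to 3.26 ± 0.14. ICAM1, an adhesion molecule for leukocytes, shrank from 5.33 ± 0.27 to 3.82 ± 0.25 and TNFAIP3, the inhibitor A20, from 2.96 ± 0.19 to 1.44 ± 0.18. The Huh7 replicates of ICAM1 with lenvatinib lay over 2-fold apart, at 24.65, 14.61 and 32.7 CPM. For TNFAIP3 the Huh7 libraries were higher with lenvatinib, at 21.4, 14.6 and 24.9 CPM, than with DMSO, at 11.4, 10.8 and 12.1 CPM. CD40, a TNF receptor of antigen-presenting cells, was at 76.5, 75.8 and 78.7 CPM in PLC/PRF/5 and at 0, 0.0539 and 0 CPM in Huh7. Lipocalin-2 (LCN2), an iron-binding acute phase protein, was at 0 in Huh7 and at least 2206-fold higher in PLC/PRF/5, at 31.1, 25.2 and 34.2 CPM. With DMSO CD40 and LCN2 were likewise read in PLC/PRF/5 and at or near 0 in Huh7.

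The chemokine promoters are shown for the kB motif, the letters GGG and TTTCC parted by 2 bases of any kind, or GGAATTTCC, on either strand, which is set in capitals; matches of both spellings can overlap. CXCL8 lies at chr4:73740369-73740568 on the plus strand and CXCL2 at chr4:74099196-74099395 on the minus strand (RefSeq, GRCh38.p14, the 200 bases before the start).
CXCL8: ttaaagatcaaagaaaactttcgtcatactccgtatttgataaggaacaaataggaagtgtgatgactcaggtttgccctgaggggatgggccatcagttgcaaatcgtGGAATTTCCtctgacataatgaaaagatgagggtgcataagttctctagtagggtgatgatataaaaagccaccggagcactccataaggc
CXCL2: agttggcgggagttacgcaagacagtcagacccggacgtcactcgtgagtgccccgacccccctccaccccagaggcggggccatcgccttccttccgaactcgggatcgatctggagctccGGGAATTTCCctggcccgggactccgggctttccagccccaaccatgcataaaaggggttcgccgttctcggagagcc
The motif was found in 1.62% of the 27305 windows and in 13 of the 17 list members that had one. NFKB2, described above, held 0 matches. The list was itself one of genes controlled by NF-kB, and a match is not evidence of binding.

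Genes of the interferon response were mostly higher in PLC/PRF/5 under DMSO and split under lenvatinib. Of 17 measured, 9 were called higher and 5 lower in PLC/PRF/5 under lenvatinib, whereas 15 were higher and 0 lower under DMSO. The line difference moved down for 12 and up for 1, USP18. The list's median line difference was 0.49 under lenvatinib and 2.01 under DMSO. IFIT3, one of the IFIT proteins that bind viral RNA, stood at 0.733, 2.36 and 1.21 CPM in PLC/PRF/5 and 5.68, 8.41 and 7.23 CPM in Huh7 with lenvatinib. With DMSO the order was the opposite, at 3.39, 3.48 and 3.73 CPM in PLC/PRF/5 and 0.389, 0.382 and 0.575 CPM in Huh7. Its line difference turned over from 2.97 ± 0.40 to -2.31 ± 0.38, a difference of -5.28 ± 0.55 (adjusted p = 1.5e-04). IFIT1 turned over too, from 2.11 ± 0.12 to -0.56 ± 0.12, at 12.1, 13 and 11.2 CPM in PLC/PRF/5 against 18.0, 18.0 and 17.6 CPM in Huh7 with lenvatinib.

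IFIT2 stood at 24.9, 24.7 and 26.7 CPM in Huh7 with lenvatinib and between 1.83 and 4.58 CPM in the other 9 libraries, so that a line difference of -2.89 ± 0.26 appeared (0.49 ± 0.25 under DMSO). Exons of IFIT2 overlap those of LIPA. ISG15, a ubiquitin-like modifier, turned over from 1.24 ± 0.09 to -0.85 ± 0.09. IFIH1, the sensor MDA5 of double-stranded RNA, shrank from 3.79 ± 0.18 to 0.60 ± 0.16: Huh7 stood at 2.46, 2.58 and 2.14 CPM with DMSO and at 16.2, 11.4 and 17.4 CPM with lenvatinib, and PLC/PRF/5 at 20.8, 24.5 and 22.9 CPM with lenvatinib. USP18, which removes ISG15 from proteins and dampens the interferon receptor, went the other way and widened from 0.92 ± 0.13 to 2.02 ± 0.14. BST2 (tetherin), which holds virus particles on the cell, kept its line difference, at 267, 241 and 255 CPM in PLC/PRF/5 and 0, 0.458 and 0.584 CPM in Huh7 (9.51 ± 0.56).

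The IFIT promoters are shown for the interferon-stimulated response element, the letters TTTC and again TTTC parted by 2 bases of any kind, on either strand, in capitals. IFIT1 lies at chr10:89392423-89392622 and IFIT3 at chr10:89327797-89327996, both on the plus strand (RefSeq, GRCh38.p14, the 200 bases before the start).
IFIT1: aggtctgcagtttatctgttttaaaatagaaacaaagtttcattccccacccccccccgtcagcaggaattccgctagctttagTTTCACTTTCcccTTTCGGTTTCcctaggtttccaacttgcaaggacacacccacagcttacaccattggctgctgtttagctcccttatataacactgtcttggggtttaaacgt
IFIT3: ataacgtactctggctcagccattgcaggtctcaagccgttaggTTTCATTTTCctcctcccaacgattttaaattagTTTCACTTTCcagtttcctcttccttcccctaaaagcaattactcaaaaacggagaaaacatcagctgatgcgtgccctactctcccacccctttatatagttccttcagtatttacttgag
The motif was found in 2.44% of the 27305 windows and in 9 of the 13 list members that had one. The list was itself one of interferon response genes, and here too a match is not evidence of binding.

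**Figure D4:**
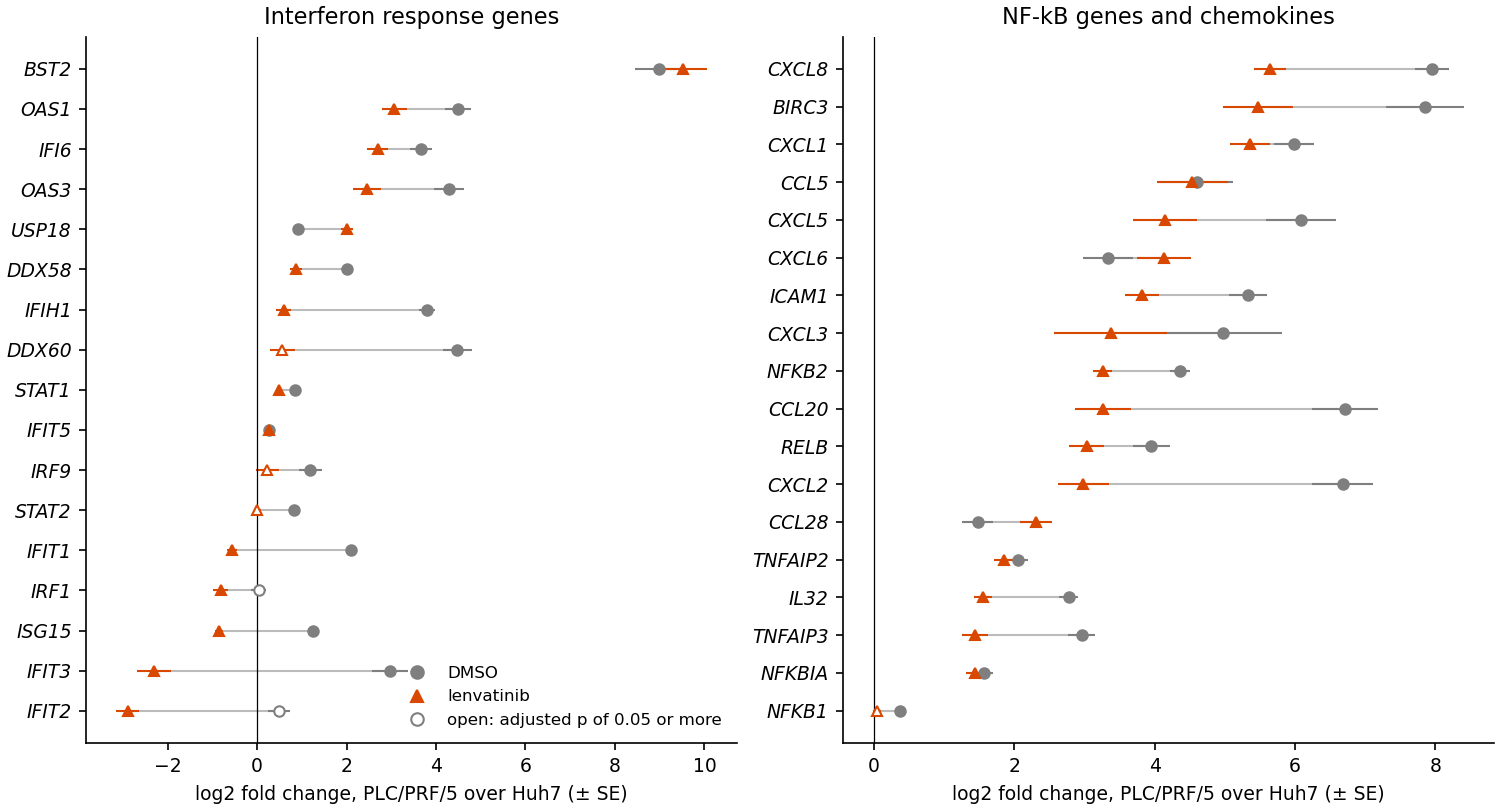
Line difference (log2 fold change of PLC/PRF/5 over Huh7, bars are standard errors) of interferon response genes (left) and of NF-kB genes and chemokines (right) under DMSO (grey circles) and lenvatinib (orange triangles), open where not called; CCL2, CD40 and LCN2, which had no counts in 1 group, are not drawn. IFIT3 crosses from 2.97 to -2.31, and CXCL8 moves from 7.95 to 5.65.

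The machinery of antigen presentation by MHC class I was higher in PLC/PRF/5 in both conditions, 14 of 15 members called higher and 0 lower in each, with median line differences of 1.45 under lenvatinib and 3.02 under DMSO. The difference moved down for 5 and up for 1. TAPBP (tapasin), which loads peptides, shrank from 3.02 ± 0.20 to 1.21 ± 0.19; it stood at 58.0, 38.5 and 74.3 CPM in Huh7 with lenvatinib and at 22.6, 19.7 and 23.4 CPM with DMSO. HLA-E, the ligand of the NKG2A receptor, shrank from 1.81 ± 0.06 to 0.94 ± 0.05. The peptide transporter TAP1 was higher in PLC/PRF/5 by 2.76 ± 0.18 and 3.76 ± 0.19. HLA genes have near-identical copies, and their counts are uncertain.

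In the acute phase and interleukin-6 list, 8 of 16 members were higher and 4 lower in PLC/PRF/5 under lenvatinib, against 12 and 4 under DMSO, and the difference moved down for 8 and up for 1. Among all genes tested, 34.0% were higher and 32.7% lower under lenvatinib. The receptor gene IL6R stood at 34.5, 29.6 and 35.6 CPM in PLC/PRF/5 and 45.4, 39.7 and 46.6 CPM in Huh7 with lenvatinib. With DMSO it was at 17.6, 20.1 and 7.60 CPM against 0.662, 1.06 and 1.63 CPM. Its line difference of 3.75 ± 0.39 under DMSO vanished (-0.40 ± 0.34, adjusted p = 0.319 under lenvatinib, and 0.0138 in a fit of only the groups compared). STAT3, the transcription factor below that receptor, vanished from 1.10 ± 0.06 to 0.10 ± 0.06; without Huh7 lenvatinib replicate 3 the lenvatinib value was called (0.16, adjusted p = 0.0436). Complement C3 shrank from 2.74 ± 0.04 to 2.12 ± 0.04. LBP, which binds bacterial lipopolysaccharide, was at 0 in Huh7 in both conditions and at least 1375-fold higher in PLC/PRF/5 with lenvatinib.

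The fibrinogen genes, which neighbour each other on chromosome 4 and encode the 3 chains of the clotting protein, lost most of their line difference. FGB, the beta chain (chr4:154562956-154571086, plus strand, GRCh38), stood at 442, 454 and 412 CPM in PLC/PRF/5 and 662, 728 and 590 CPM in Huh7 with lenvatinib. With DMSO it was at 1045, 1007 and 977 CPM in PLC/PRF/5 and 183, 171 and 176 CPM in Huh7. The lines did not overlap in either condition, and the line difference turned over from 2.51 ± 0.07 to -0.60 ± 0.07 (difference -3.11 ± 0.10, adjusted p = 3.6e-08). FGA, the alpha chain, shrank from 3.16 ± 0.06 to 0.22 ± 0.06, at 1369, 1335 and 1355 CPM against 1170, 1257 and 1069 CPM with lenvatinib, and at 3965, 3676 and 3618 CPM against 433, 409 and 419 CPM with DMSO. FGG, the gamma chain, shrank from 3.58 ± 0.04 to 0.61 ± 0.04. For all 3 genes the Huh7 libraries were higher and the PLC/PRF/5 libraries lower with lenvatinib than with DMSO.

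Proteins that hepatocytes secrete, a list that also holds the fibrinogen gene FGG, differed in both directions. Of 20 measured, 9 were higher and 11 lower in PLC/PRF/5 under lenvatinib, against 8 and 7 under DMSO. For all genes tested the shares were 34.0% higher and 32.7% lower under lenvatinib. The difference moved down for 9 and up for 2. Albumin (ALB), the main plasma protein, stood at 8.91, 11.2 and 11.8 CPM in PLC/PRF/5 and 3439, 4127 and 2972 CPM in Huh7, a line difference of -8.36 ± 0.17 that was -8.23 ± 0.17 under DMSO. Transthyretin (TTR), a carrier of thyroid hormone, was at 0.306, 0.464 and 0.746 CPM in PLC/PRF/5 and 57.1, 47.9 and 59.5 CPM in Huh7, and its line difference shrank from -8.89 ± 0.39 to -6.76 ± 0.35. TTR was thus near 0 in PLC/PRF/5, while ALB was read there at a low level. Alpha-1-antitrypsin (SERPINA1) was higher in PLC/PRF/5 by 3.33 ± 0.28, at 720, 623 and 724 CPM against 64.4, 90.8 and 50.3 CPM. APOB, the protein of low-density lipoprotein, shrank from 3.08 ± 0.20 to 1.69 ± 0.19, while its Huh7 replicates with lenvatinib, at 955, 1328 and 660 CPM, lay over 2-fold apart. APOA1, that of high-density lipoprotein, appeared at -1.97 ± 0.27, with Huh7 at 35.2, 48.9 and 20.5 CPM and PLC/PRF/5 at 10.7, 8.38 and 7.58 CPM.

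The transcription factors that keep hepatocyte identity were mostly lower in PLC/PRF/5, 16 of 20 under lenvatinib and 15 under DMSO, with 3 and 2 higher; the list's median was -1.51 and -1.01. HNF4A, the central one, stood at 22.2, 26.5 and 39.5 CPM against 101, 118 and 89.8 CPM in Huh7 (-1.81 ± 0.20) and was -1.33 ± 0.19 under DMSO. CEBPA was lower by a line difference of -4.12 ± 0.14 and -3.86 ± 0.14. FOXA2, a pioneer factor, widened from -0.77 ± 0.06 to -1.22 ± 0.06.

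Line differences in drug and bile acid metabolism moved down for 7 of 12 members and up for 0. CYP1A1, which oxidises aromatic hydrocarbons, stood at 48.6, 56.2 and 30.7 CPM in PLC/PRF/5 and 32.7, 41.6 and 33.2 CPM in Huh7 with lenvatinib, and at 44.2, 31.8 and 42.6 CPM against 5.07, 3.90 and 5.32 CPM with DMSO. The line difference of 3.05 ± 0.24 under DMSO vanished (0.33 ± 0.22, adjusted p = 0.202; 0.56 with adjusted p = 0.0207 without PLC/PRF/5 replicate 3). The export pumps went different ways. ABCB1 (P-glycoprotein) was lower in PLC/PRF/5 and widened from -3.19 ± 0.18 to -4.69 ± 0.19, at 4.53, 4.32 and 4.29 CPM against 113, 115 and 112 CPM. ABCC2, the canalicular pump for conjugates, was higher and shrank from 3.49 ± 0.07 to 2.32 ± 0.07, and ABCG2, the breast cancer resistance protein, was higher and shrank from 7.92 ± 0.42 to 4.83 ± 0.35. UGT2B15, which conjugates steroids, was at 35.8, 35.1 and 28.8 CPM in Huh7 with lenvatinib and at 0 in PLC/PRF/5, at least 2506-fold lower there. With DMSO it was at 1.25, 0.382 and 1.04 CPM in Huh7 and at 0.110, 0 and 0 CPM in PLC/PRF/5, so that its line difference widened.

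Enzymes of the urea cycle and of amino acid breakdown were higher in PLC/PRF/5, 8 of 10 measured members in both conditions, with 2 lower. CPS1, the first enzyme of the urea cycle, stood at 1526, 1530 and 1539 CPM in PLC/PRF/5 and near 1 CPM in Huh7, at 1.16, 0.943 and 1.17 CPM (10.45 ± 0.43). ASS1, argininosuccinate synthase, shrank from 5.65 ± 0.14 to 4.19 ± 0.13, with Huh7 at 72, 82.6 and 54.3 CPM with lenvatinib and 31.3, 31.0 and 30.6 CPM with DMSO.

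**Figure D5:**
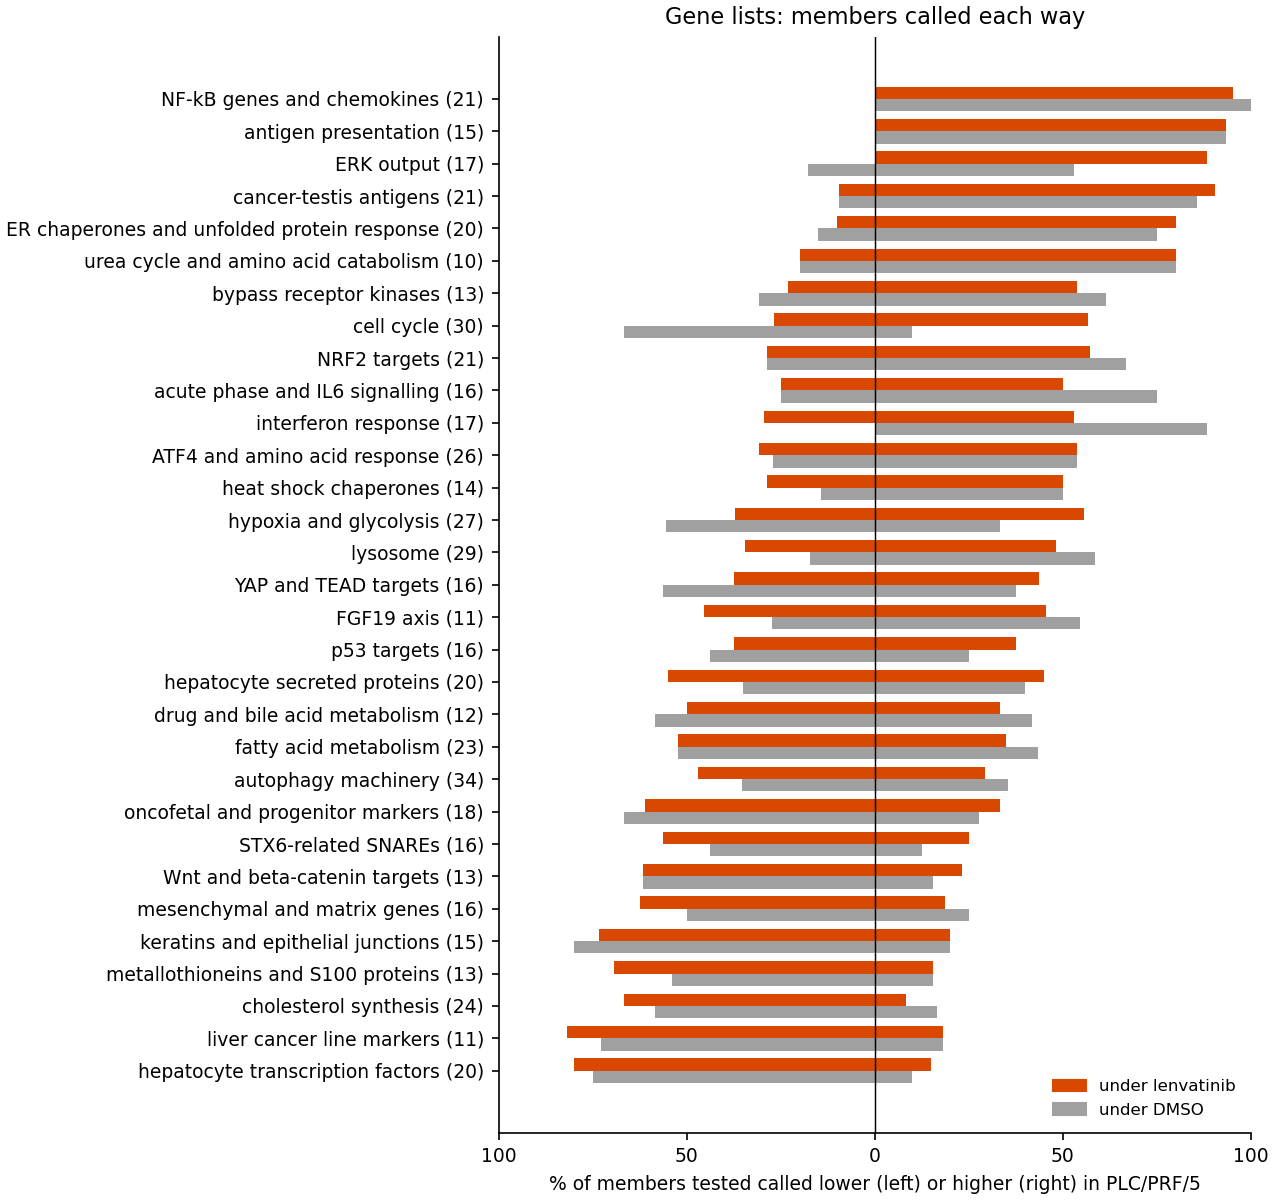
Share of the tested members of each of 31 gene lists with at least 10 members tested (number in parentheses) that were called higher (right) or lower (left) in PLC/PRF/5, under lenvatinib (orange) and DMSO (grey). The bars of ERK output, cell cycle and interferon response differ between the conditions, with 15 of 17, 17 of 30 and 9 of 17 higher under lenvatinib and 9, 3 and 15 higher under DMSO; over all genes tested 34.0% were higher and 32.7% lower under lenvatinib.

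Genes of oxygen sensing and glycolysis were split, 15 of 27 higher and 10 lower in PLC/PRF/5 under lenvatinib against 9 and 15 under DMSO, and the difference moved up for 12 and down for 3. Under lenvatinib 34.0% of all genes tested were higher and 32.7% lower. PDK1, a mitochondrial kinase that inhibits pyruvate dehydrogenase, turned over from -0.58 ± 0.08 to 0.91 ± 0.08, at 42.4, 41.2 and 41.2 CPM against 20.04, 24.9 and 21.7 CPM with lenvatinib. The lactate dehydrogenase subunits stood in opposite directions. LDHA was lower in PLC/PRF/5 and shrank from -1.91 ± 0.09 to -0.96 ± 0.09, at 434, 413 and 417 CPM against 790, 870 and 789 CPM. LDHB was at 621, 636 and 617 CPM in PLC/PRF/5 and 2.50, 1.75 and 2.46 CPM in Huh7, and shrank from 9.47 ± 0.17 to 8.12 ± 0.16. PFKP, the platelet form of phosphofructokinase, was higher by 7.73 ± 0.19. NDRG1, a gene known for its response to hypoxia, was lower and widened from -2.57 ± 0.18 to -4.21 ± 0.19, at 12, 10.5 and 13.3 CPM against 222, 281 and 161 CPM.

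In the ATF4 and amino acid response, 14 of 26 members were higher and 8 lower under lenvatinib, and 14 and 7 under DMSO. Shares over all genes tested were 34.0% higher and 32.7% lower under lenvatinib. For 8 members the difference between the conditions moved up and for 4 down. GDF15 and NUPR1, described next, moved down. GDF15, a stress hormone that suppresses appetite, shrank from 4.92 ± 0.19 to 2.62 ± 0.18, at 158, 164 and 155 CPM in PLC/PRF/5 against 25.7, 18.2 and 33.6 CPM in Huh7 with lenvatinib and 442, 434 and 398 CPM against 13.2, 14.7 and 14.1 CPM with DMSO. NUPR1, a stress-induced chromatin protein, widened from -0.69 ± 0.16 to -2.40 ± 0.16, at 22.5, 17.2 and 20.7 CPM against 120, 109 and 89.8 CPM. Chaperones of the endoplasmic reticulum were higher in PLC/PRF/5, 16 of 20 members under lenvatinib and 15 under DMSO, with 2 and 3 lower. PDIA6, a disulfide isomerase, stood at 1256, 1325 and 1312 CPM against 289, 291 and 290 CPM and widened from 1.76 ± 0.04 to 2.16 ± 0.04, and PDIA4 widened from 1.19 ± 0.05 to 1.56 ± 0.05. The chaperone BiP (HSPA5) was higher by 1.33 ± 0.03 and 1.14 ± 0.03, and HYOU1 by 2.22 ± 0.14 and 1.85 ± 0.14. CREB3L2, a membrane-bound transcription factor of the secretory pathway, turned over from -1.55 ± 0.04 to 0.76 ± 0.04: Huh7 was at 422, 433 and 442 CPM with DMSO and 80.8, 86.1 and 82.0 CPM with lenvatinib, while PLC/PRF/5 lay between 138 and 150 CPM in both.

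Targets of NRF2, the regulator of the antioxidant response, were called higher for 12 of 21 and lower for 6 under lenvatinib, against 14 and 6 under DMSO. The shares over all genes tested were 34.0% and 32.7% under lenvatinib. The difference moved down for 8 and up for 1. Heme oxygenase (HMOX1) was higher in PLC/PRF/5 by 2.97 ± 0.10, at 176, 153 and 157 CPM against 21.3, 21.1 and 19.6 CPM, and GCLM, of glutathione synthesis, by 2.15 ± 0.10; neither difference between the conditions was called (-0.13 ± 0.13 and 0.06 ± 0.13). AKR1C2, an aldo-keto reductase of steroids, appeared at -1.50 ± 0.12, with Huh7 at 128, 137 and 120 CPM and PLC/PRF/5 at 50.3, 36.3 and 49.0 CPM; it is near-identical to AKR1C1 and its reads may be shared. Ferritin light chain (FTL), of iron storage, turned over from 0.22 ± 0.08 with DMSO to -0.97 ± 0.08 with lenvatinib, at 2927, 2713 and 2812 CPM in PLC/PRF/5 against 5718, 6153 and 4692 CPM in Huh7 with lenvatinib. Its DMSO value was no longer called without any 1 of Huh7 DMSO replicates 1, 2 and 3 and PLC/PRF/5 DMSO replicate 1 (adjusted p between 0.0644 and 0.128).

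Targets of YAP and TEAD, the transcriptional arm of the Hippo pathway, were higher for 7 of 16 and lower for 6 under lenvatinib against 6 and 9 under DMSO, and the list's median went from -1.58 under DMSO to 0.17. Of all genes tested 34.0% were higher and 32.7% lower under lenvatinib. The difference between the conditions moved up for 5 members and down for 1. It was not called for 10, with DLC1, AJUBA and PTPN14 among them. CCN2, CCN1 and ANKRD1, described next, moved up. CCN2, a matricellular growth factor, turned over. It stood at 112, 102 and 102 CPM in PLC/PRF/5 and 638, 666 and 642 CPM in Huh7 with DMSO, and at 31.3, 27.1 and 32.5 CPM against 22.8, 19.4 and 25.5 CPM with lenvatinib. All lenvatinib libraries were below all DMSO libraries, and the line difference went from -2.62 ± 0.10 to 0.43 ± 0.10 (difference 3.05 ± 0.14). The line difference of CCN1 vanished from -2.44 ± 0.23 to -0.08 ± 0.22, with Huh7 replicates over 2-fold apart at 39.2, 26.2 and 58.0 CPM. ANKRD1, a muscle ankyrin repeat protein, was lower in PLC/PRF/5 in both conditions, by -3.57 ± 0.24 with lenvatinib and -4.81 ± 0.25 with DMSO. Its Huh7 replicates with lenvatinib lay over 2-fold apart, at 68.2, 40.6 and 87.1 CPM.

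Markers of fetal liver and of progenitors were mostly lower in PLC/PRF/5, 11 of 18 under lenvatinib and 12 under DMSO, with 6 and 5 higher. Keratin 19 (KRT19), a bile duct keratin, stood at 0.160, 0.348 and 0.556 CPM in PLC/PRF/5 and 308, 287 and 303 CPM in Huh7 (-9.72 ± 0.33), and EPCAM widened from -7.41 ± 0.23 to -8.70 ± 0.25. Insulin-like growth factor 2 (IGF2) was lower by -9.73 ± 0.31, glypican-3 (GPC3) by -2.09 ± 0.16 and alpha-fetoprotein (AFP) by -2.83 ± 0.10 on the log2 scale. SPINK1, a trypsin inhibitor, was at 0.200, 0.0516 and 0.0678 CPM against 298, 244 and 316 CPM (-11.37 ± 0.28). SOX9, a factor of biliary and progenitor cells, shrank from -4.18 ± 0.15 to -1.98 ± 0.14: Huh7 stood at 110, 110 and 111 CPM with DMSO and 18.8, 23.5 and 19.6 CPM with lenvatinib. LGR5, a Wnt-dependent stem cell receptor, was higher in PLC/PRF/5 and widened from 2.16 ± 0.16 to 3.59 ± 0.17. Vimentin (VIM), a filament of mesenchymal cells, was lower by -4.48 ± 0.15. The hair keratin KRT81 was at 0 in Huh7 in both conditions and at least 977.7-fold higher in PLC/PRF/5 with lenvatinib.

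Antigens shared by the testis and tumours were higher in PLC/PRF/5 for 19 of 21 measured and lower for 2, and the difference was called for 1, which moved down. In each condition 8 of the 21 had no counts in 1 line, and for such genes this test can decide little. CTAG2 was at least 2479-fold and CT45A1 at least 3468-fold higher, at 31.6, 33.6 and 36.6 CPM and at 45.7, 46.0 and 50.6 CPM, with 0 in all Huh7 libraries with lenvatinib. Many members of these families are near-identical, and the share of reads of each is uncertain.

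Cholesterol synthesis was lower in PLC/PRF/5 for 16 of 24 members under lenvatinib and 14 under DMSO, with 2 and 4 higher. HMGCS1, the first committed enzyme of the pathway, stood at 155, 161 and 154 CPM against 1902, 1994 and 1914 CPM in Huh7, and widened from -3.31 ± 0.04 to -3.63 ± 0.04. In fatty acid metabolism 8 of 23 were higher and 12 lower under lenvatinib, against 10 and 12 under DMSO. Over all genes tested 34.0% were higher and 32.7% lower under lenvatinib. PLIN2, the coat of lipid droplets, widened from -0.83 ± 0.08 to -2.14 ± 0.08, at 31.5, 36.4 and 36.1 CPM against 153, 163 and 141 CPM. PDK4, a pyruvate dehydrogenase kinase of the fasting response, was higher and shrank from 3.63 ± 0.10 to 2.29 ± 0.10.

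The autophagy machinery, which the study concerns, was called lower in PLC/PRF/5 for 16 of 34 members and higher for 10 under lenvatinib, against 12 and 12 under DMSO; of all genes tested 32.7% were lower and 34.0% higher under lenvatinib. The difference moved down for 9 and up for 0. SQSTM1 (p62), the receptor that brings ubiquitinated cargo to autophagosomes, stood at 969, 1000 and 955 CPM in PLC/PRF/5 and 1079, 1000 and 1106 CPM in Huh7 with lenvatinib, and at 1126, 1080 and 1062 CPM against 399, 414 and 399 CPM with DMSO. The lines overlapped under lenvatinib, close to 1000 CPM, and were far apart under DMSO. Its line difference went from 1.43 ± 0.04 to -0.12 ± 0.04 (adjusted p = 0.0279; the difference, -1.55 ± 0.06, adjusted p = 1.9e-07). The small lenvatinib value was no longer called without any 1 of 4 libraries (Huh7 replicate 1 or 3, PLC/PRF/5 replicate 1 or 3; adjusted p between 0.0950 and 0.129). ATG7, the enzyme that activates the LC3 conjugation, was lower in both conditions, at 18.9, 16.2 and 16.9 CPM against 39.4, 44.3 and 45.5 CPM (-1.31 ± 0.09) and -1.23 ± 0.09 under DMSO; its exons overlap those of VGLL4. The LC3 gene MAP1LC3A was at 0 in PLC/PRF/5, at least 228.7-fold lower than the 4.43, 1.70 and 2.96 CPM of Huh7. The kinase gene ULK2 was at 0, 0.0516 and 0 CPM in PLC/PRF/5 against 21.9, 26.6 and 24.7 CPM. With DMSO MAP1LC3A and ULK2 were at 0 in PLC/PRF/5 as well. In Huh7 with DMSO MAP1LC3A was at 5.30, 5.51 and 4.76 CPM and ULK2 at 22.1, 27.35 and 23.9 CPM.

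Among lysosome genes 14 of 29 were higher and 10 lower in PLC/PRF/5 under lenvatinib, where 34.0% and 32.7% of all genes tested were. Under DMSO 17 were higher and 5 lower, and the difference moved down for 8 and up for 0. NEU1, the sialidase, shrank from 1.51 ± 0.05 to 0.23 ± 0.05, at 123, 128 and 117 CPM against 108, 106 and 101 CPM with lenvatinib and 168, 160 and 159 CPM against 57.6, 54.6 and 57.9 CPM with DMSO. CTSA, the protective protein that forms a complex with it, shrank from 2.002 ± 0.06 to 1.11 ± 0.06; its exons overlap those of NEURL2 and PLTP.

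SNARE proteins related to STX6 drive fusion between the trans-Golgi network, endosomes and lysosomes. Of 16 measured, 4 were higher and 9 lower in PLC/PRF/5 under lenvatinib, against 2 and 7 under DMSO, and the difference was called for 1, STX8, which moved up. Among all genes tested, 34.0% were higher and 32.7% lower under lenvatinib. STX8, a SNARE of late endosomes, was lower, at 16, 15.4 and 15.7 CPM against 37.4, 39.3 and 33.3 CPM (-1.23 ± 0.08), and -1.66 ± 0.09 under DMSO. The difference of 0.44 (adjusted p = 0.0304) was called without Huh7 DMSO replicate 2, Huh7 lenvatinib replicate 2 or PLC/PRF/5 DMSO replicate 3, and not without any other library (adjusted p between 0.0505 and 0.0753), nor with the replicate block (adjusted p = 0.0603). YKT6, a SNARE of several membranes, was higher by 0.44 ± 0.04 and 0.42 ± 0.04.

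STX6 itself (chr1:180972712-181023121, minus strand, GRCh38, exons overlapping AL162431.2) stood at 81.3, 84.0 and 28.5 CPM in PLC/PRF/5 and 51.0, 52.9 and 44.3 CPM in Huh7 with lenvatinib. One PLC/PRF/5 library lay below all Huh7 libraries and the others above them, so that the groups overlapped. The same held with DMSO, at 75.2, 17.8 and 77.7 CPM in PLC/PRF/5 and 54.0, 46.5 and 50.5 CPM in Huh7. The line difference in the counts was 0.39 ± 0.50 (adjusted p = 0.514), 0.18 ± 0.50 under DMSO, and the difference of 0.21 ± 0.70 was not called (adjusted p = 0.901). Leaving out 1 library at a time moved the lenvatinib value between 0.16 and 0.75, without a call. In the authors' FPKM the same libraries were at 41.2, 41.5 and 43.9 for PLC/PRF/5 and 36.7, 36.8 and 35.9 for Huh7 (42.2 ± 1.495 against 36.5 ± 0.520, SD, n = 3 each), which did not overlap. An exact two-sided permutation test of these FPKM gave p = 0.1, the smallest that 3 against 3 can give. The FPKM and the counts of STX6 do not match each other. At the ratio of FPKM to CPM that STX6 had in the DMSO libraries (the median of 6), the counts correspond to 11.1, 11.41 and 3.90 FPKM in PLC/PRF/5 and 6.74, 6.88 and 5.92 FPKM in Huh7. That ratio was itself uneven over the DMSO libraries. In PLC/PRF/5 with DMSO the deposited FPKM were 9.74, 8.33 and 10.2, without the low value that the counts had in replicate 2. The deposited FPKM of the DMSO libraries lay between 5.98 and 10.2, below the deposited FPKM of all 6 lenvatinib libraries, and which of the values describes STX6 was not tested.

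Outside the lists, genes with a large move of the line difference had several functions. PDE4B, which breaks down cyclic AMP, stood at 28.0, 30.4 and 32.8 CPM in PLC/PRF/5 and 0.424, 0.714 and 1.49 CPM in Huh7 with lenvatinib, and at 56, 47.0 and 54.6 CPM against 24.2, 22.6 and 21.7 CPM with DMSO, so that its line difference widened from 1.20 ± 0.29 to 5.12 ± 0.35. CLCN4, a chloride and proton exchanger of endosomes, appeared at 2.48 ± 0.11: 3 of 4 groups lay between 31.5 and 42.1 CPM and Huh7 with lenvatinib at 6.09, 6.87 and 7.78 CPM. HEG1, a receptor of cell junctions, vanished from -3.07 ± 0.21 to -0.12 ± 0.19, Huh7 being at 318, 226 and 340 CPM with DMSO and 63.9, 41.1 and 53.2 CPM with lenvatinib. BTG2, an antiproliferative gene from the list of p53 targets, widened by less than 2-fold, from -1.14 ± 0.12 to -2.12 ± 0.13.

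LINC00205, a long noncoding RNA on chromosome 21, turned over between the lines, and in both lines the lenvatinib libraries lay above the DMSO libraries. It stood at 71.5, 85.7 and 65.9 CPM in PLC/PRF/5 and 35.1, 40.1 and 27.7 CPM in Huh7 with lenvatinib, and at 4.48, 3.54 and 4.32 CPM against 18.8, 21.9 and 17.4 CPM with DMSO. The line difference went from -2.23 ± 0.17 to 1.12 ± 0.16 (adjusted p of the difference 8.8e-06). HABP2, a plasma serine protease that activates factor VII, turned over in the other direction, from 1.12 ± 0.13 to -1.77 ± 0.14, at 14.1, 14 and 14.3 CPM in PLC/PRF/5 against 51.2, 55 and 39.1 CPM in Huh7 with lenvatinib; its exons overlap those of NRAP.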

How the data were processed

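Messenger RNA of the 12 libraries was read single-end at 50 bases. The table holds the authors' read counts per gene and, beside them, the deposited FPKM (reads scaled to gene length and depth), with reads aligned with HISAT2 to hg19 per the submitters' processing notes. Which program and annotation made the counts, and whether strand was used, is not given in the sources used here. Of 40825 lines, 2803 symbols stood on several lines, each tested alone, and 12 columns of other libraries were not used.

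The 15587 genes whose mean FPKM reached 0.5 were tested on the counts with edgeR 4.0.16 in R 4.3.3: TMM scaling, robust quasi-likelihood fit of 4 groups, contrasts between the lines under lenvatinib, under DMSO and their difference, and Benjamini-Hochberg adjustment over all genes tested. The method was also run on simulated counts in which few genes were changed, and by small folds. Differences as many and as wide as those between the lines were not simulated. The standard error is the log2 fold change divided by the square root of F. limma 3.58.1 and DESeq2 1.42.0 served as alternatives, and Python 3.11.15 with scipy 1.17.1 for the permutation test. Total counts of 70236175 to 75820318 per library make counting error small for all but low genes, and floors of 3 counts cover counting error only.

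Deviations of same-numbered libraries from their group means correlated between -0.03 and 0.05, so that the numbers were not taken as pairs. Genes were named by rank in the comparison, in each class and in each list (191 by the rule). Of 125 genes described with values, 86 came from the rule and 39 were chosen after their values were seen; some genes are not reported here. The comparison, gene lists and tests were chosen with earlier results of these data known. Coordinates and overlapping exons come from GENCODE 29 (GRCh38), whereas the submitters' notes name hg19.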

Additional observations from a re-analysis of the deposited data

Results flagged for a closer look

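For 83 of the genes described, the line difference under lenvatinib was another than that under DMSO, by edgeR's quasi-likelihood test of the interaction contrast with an adjusted p under 0.05 over all genes tested. The values below are the line difference (log2 fold change of PLC/PRF/5 over Huh7) under lenvatinib minus that under DMSO, with 3 libraries in each of the 4 groups. They were given for genes picked out for description, and 14.4% of all genes tested passed the same test. UGT2B15 passed it too, but no value is given, its PLC/PRF/5 libraries with lenvatinib being at 0.

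Among genes of ERK signalling and its receptors the values were 4.96 for SPRY4, 4.597 for ETV5, 3.80 for ETV1, 3.69 for DUSP6, 3.29 for SPRED1, 3.25 for ETV4, 2.80 for EPHA2, 2.05 for SPRY2, 1.79 for CCND1, 1.18 for DUSP5, -1.10 for PHLDA1, -1.41 for KLB and -0.28 for EGFR. In the cell cycle list they were 2.43 for RRM2, 1.99 for CCNE2, 1.79 for E2F1, 1.65 for CDC6, 1.64 for MCM3, 1.44 for TYMS, 1.33 for MCM5 and 1.14 for MCM6, all towards PLC/PRF/5.

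For NF-kB genes and chemokines they were -3.69 for CXCL2, -3.45 for CCL20, -2.30 for CXCL8, -1.52 for TNFAIP3, -1.51 for ICAM1 and -1.10 for NFKB2, all towards Huh7. For interferon and antigen presentation genes they were -5.28 for IFIT3, -3.38 for IFIT2, -3.20 for IFIH1, -2.67 for IFIT1, -2.09 for ISG15, -1.81 for TAPBP, -0.99 for TAP1, -0.87 for HLA-E and 1.09 for USP18. For the interleukin-6 and acute phase genes and fibrinogen they were -4.15 for IL6R, -3.11 for FGB, -2.96 for FGG, -2.94 for FGA, -0.9987 for STAT3 and -0.62 for C3.

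For other liver functions the values were 2.13 for TTR, 0.60 for AFP, -0.45 for FOXA2, -1.40 for APOB, -1.67 for APOA1, -1.17 for ABCC2, -1.50 for ABCB1, -3.09 for ABCG2, -2.72 for CYP1A1 and -1.46 for ASS1. For metabolism and stress they were 1.49 for PDK1, 0.95 for LDHA, -1.35 for LDHB, -1.65 for NDRG1, -1.34 for PDK4, -1.305 for PLIN2, -0.32 for HMGCS1, -1.71 for NUPR1, -2.31 for GDF15, -1.32 for AKR1C2, -1.20 for FTL, 0.40 for PDIA6, 0.37 for PDIA4, 0.18 for HSPA5 and 2.31 for CREB3L2. For YAP targets, progenitor markers, lysosome and autophagy genes they were 3.05 for CCN2, 2.36 for CCN1, 1.24 for ANKRD1, 2.20 for SOX9, 1.43 for LGR5, -1.29 for EPCAM, -1.55 for SQSTM1, -1.29 for NEU1 and -0.89 for CTSA. They were 0.44 for STX8, a SNARE, and -0.97 for BTG2, a p53 target. Leaving out 1 library ended the call of some of these differences, with adjusted p between 0.0505 and 0.0753. For STX8 these libraries are given above. For TAP1 they were Huh7 DMSO replicate 2 and PLC/PRF/5 lenvatinib replicates 1 and 3, for ANKRD1 replicate 2 of PLC/PRF/5 with DMSO and with lenvatinib, and for HSPA5 Huh7 DMSO replicate 2 and PLC/PRF/5 DMSO replicate 3. For EGFR they were Huh7 DMSO replicates 1, 2 and 3, Huh7 lenvatinib replicate 2 and PLC/PRF/5 DMSO replicate 3. Outside the lists the values were 3.92 for PDE4B, 3.35 for LINC00205, 2.94 for HEG1, 2.27 for CLCN4 and -2.89 for HABP2.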

How the results depend on the processing

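Under 26 other settings (1 of them for STX6 alone), 12 of which left out 1 library, 385 of 393 counts of calls and values of STX6 kept their direction and side of the threshold or stayed within 1.5 times, and 0 reversed. With a mean FPKM of at least 5, which leaves 7099 genes to test, the lenvatinib calls were 5344 (75.3%), 2685 higher and 2659 lower, and the DMSO calls 5325, 2608 higher and 2717 lower. The share called under lenvatinib was 53.3% of 24797 genes with filterByExpr and 32.4% of 38809 with no filter, against 66.7%. STX6 was called by limma, at 0.21 on log2(FPKM + 1) (adjusted p = 0.0246) and 0.21 on log2(FPKM + 0.1) (adjusted p = 0.0336). Leaving out 1 library gave 9812 to 10421 lenvatinib calls, 9871 to 10494 DMSO calls and 1782 to 2307 calls of the difference. The classes then ranged from 301 to 383 (appeared), 309 to 423 (vanished), 526 to 652 (shrank), 417 to 635 (widened) and 161 to 214 (turned over), and STX6 from 0.16 to 0.75. With the replicate number as a block the counts were 10241, 10298 and 1962, and STX6 stood at 0.37; the numbers did not pair the samples. Scaling by library totals moved the share of difference calls that were higher from 52.1% to 61.9%. Of 8179 values of single genes, 44 lost and 14 gained a call and 0 reversed. Depth limits genes at or near 0 in 1 line. The cause of these changes was not tested.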
